A study of Mus musculus with 31 samples.

Results

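The comparison concerned exon usage in the cortex of knock-in wild-type (WT) mice, with 5 mice of the Q150 set on one side and 5 mice of the Q175 set on the other. These 10 mice were all those labelled with the genotype Q7/Q7, out of 31 mice in the series, and carried 7 glutamines on each huntingtin allele and so no mutant allele. The labels place all 10 in 1 group. They were assigned to a set by the list of splicing events in their files, which WT mice 1 to 5 shared with the mutant mice whose genotype label gives 150Q alleles and WT mice 6 to 10 with those whose label gives 175Q alleles. The line names in the labels conflict with this split, since the titles of all knock-in mice say Q150 and the genotype labels of all their mutants say Q175, so the sets rest on the event lists and the allele lengths; the names of all 28 files used follow the same split. The comparison answers which events differed between these cohorts without any mutant allele, and how large such differences were beside the spread between mice.

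The series asked how splicing differs in mouse models of Huntington's disease, a neurodegenerative disorder caused by an expanded glutamine tract in huntingtin. Total RNA was taken from the cortex of 1 hemisphere of untreated mice, 1 library per mouse. The Q150-set mice were 7 months old and the Q175-set mice 18 months old. Heterozygous (HET) mice carried 1 knock-in allele of 150 or 175 glutamines beside the 7-glutamine allele and homozygous (HOMO) mice carried 2, and they numbered 4 HET and 4 HOMO mice in the Q150 set and 4 HET and 3 HOMO mice in the Q175 set by the alleles in the labels. The study's methods give the HOMO numbers of the sets the other way round, while its supplement gives them as the labels do. Both lines are knock-ins of the mouse huntingtin gene, and a strain background of the WT mice was not stated apart from that of the lines. Sexes were balanced over the study but are not given per mouse. A further 3 WT mice, controls of the transgenic R6/2 line, were 3 months old. Set, age, line of origin and any batch of library preparation coincide in the WT mice and cannot be told apart, so each difference is given only as one between the sets.

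Alternative splicing lets 1 gene give transcripts with and without a given exon. The spliceosome joins exons under the control of RNA-binding proteins, and brain tissue is known for many cassette exons, often short ones, in genes for synaptic receptors, ion channels, the cytoskeleton and the splicing factors themselves. The assay, RASL-seq, reads such choices with probe pairs that are ligated when they sit side by side on a known splice junction. For each event, reads of the skipping junction (the short form) and of an including junction (the long form) were counted. Exclusion is the percentage of an event's counts that fell on the short form. Probe sequences were not analysed here, so none are shown.

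The Q150-set files listed 1785 events and the Q175-set files 1839, and 1731 events in 1429 genes were common to both and were compared. The 54 and 108 events listed in only 1 set were left out; their smaller junction had a median of 9 and 11 counts in the WT mice of that set, against 69 for the common events. Of the common events 1668 were cassette exons, 30 alternative 3' splice sites, 19 alternative 5' splice sites and 14 of the type the files call TwoMulx. Total counts ran from 2970207 to 5256516 per WT mouse, lowest in WT mouse 5, and the common events had a median of 720.5 counts per mouse. The lowest junction count in any WT mouse was 4, so the lists hold no event at 0. Positions are given as the files have them. Submitters' processing notes name mm10, but only 277 of 1687 events whose gene was matched in the GRCm38 table overlapped that gene, so the build is unresolved and no exon annotation is attached.

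The genes with listed events depend on the probes and on counts at both junctions, so they do not identify the tissue as cortex. Events of 8 genes of the neuron list were present (Ank3, Cux1, Dlg4, Gria2, Grin1, Mapt, Mtap2 and Syt1), of 7 of the myelin and oligodendrocyte list (among them Mag, Mbp and Mobp), of 4 of the astrocyte list, of 3 of the microglia and immune list and of 3 of the vascular list. No event of the 20 striatal markers was listed. Because only events with counts on both junctions were listed, the absence of a marker says nothing of its expression. Defining markers such as Snap25, Gfap, Csf1r and Cldn5 had no listed event.

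WT cortex used the whole range from near-complete inclusion to near-complete exclusion. Averaged over the 10 WT mice, exclusion was under 5% in 244 events (14.1%), from 5 to 20% in 327 (18.9%), from 20 to 80% in 759 (43.8%), from 80 to 95% in 252 (14.6%) and over 95% in 149 (8.6%). The 2 sets gave nearly the same picture event by event. Their means lay within 1 percentage point of each other in 797 events (46.0%), within 5 points in 1557 (89.9%) and within 10 points in 1701 (98.3%), with a median absolute difference of 1.18 points. Pearson's r of the set means over the 1731 events was 0.995, a description across events that share probes, libraries and depth. The median SD between mice of a set was 2.23 points in the Q150 set and 1.86 points in the Q175 set.

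Mean exclusion over the common events was 44.8, 45.2, 44.7, 44.7 and 45.0% in Q150-set mice 1 to 5, and 45.1, 45.1, 45.8, 45.1 and 45.1% in Q175-set mice 6 to 10. WT mouse 2 of the Q150 set overlapped with the Q175-set mice and WT mouse 8 stood above all others. The set means were 44.9% ± 0.196 (SD, n = 5) and 45.2% ± 0.293 (SD, n = 5), a difference of 0.375 points with a two-sided exact permutation p = 0.0397, where the smallest p the design allows is 0.00794. The p stayed under 0.05 over cassette exons alone and over events with at least 50 counts, but not for 2 other summaries. The share of summed counts differed by 0.343 points (exact permutation p = 0.310) and the median over events by 0.721 points (exact permutation p = 0.183). Without WT mouse 8 the difference of means was 0.244 points (exact permutation p = 0.0794), and without mouse 1, 3, 4 or 5 the p was also above 0.05.

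**Figure D1:**
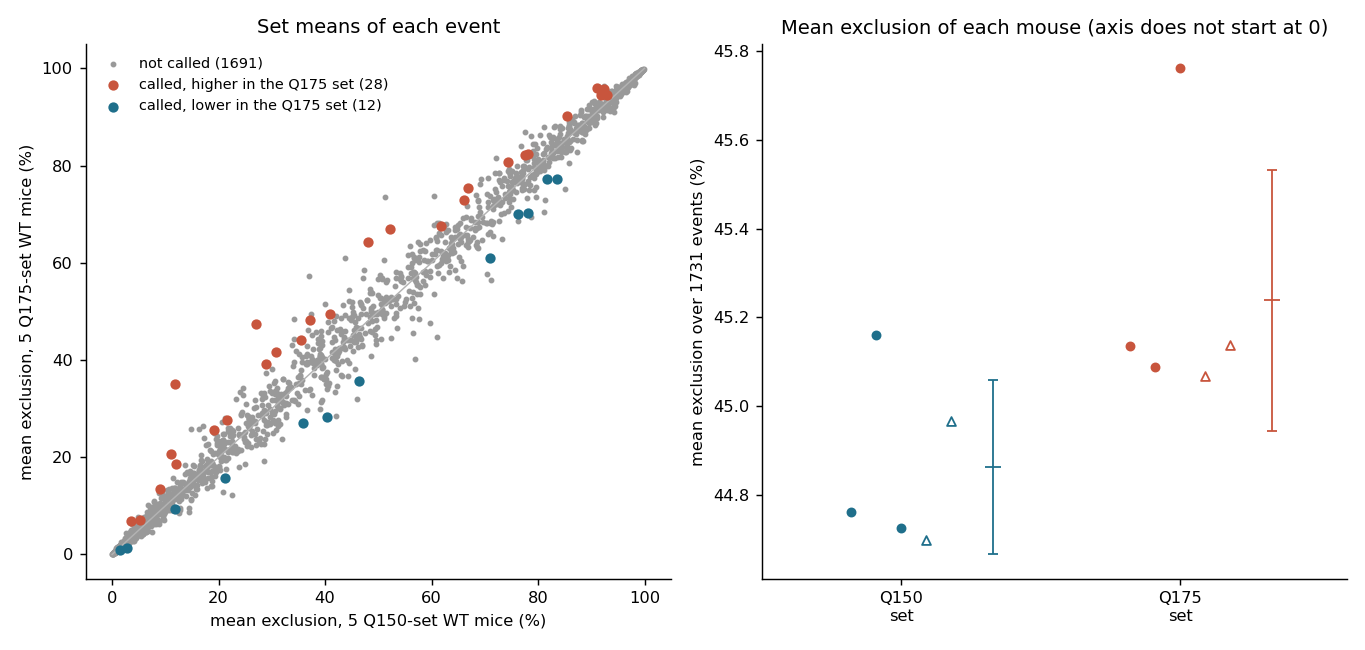
Left, mean exclusion (percent) of each of the 1731 common events in the 5 Q150-set WT mice (x axis) and the 5 Q175-set WT mice (y axis); coloured points passed the limma test, 28 with higher and 12 with lower exclusion in the Q175 set, and lie to either side of the diagonal. Right, mean exclusion over all common events in each WT mouse (circles lower, open triangles higher series of mouse numbers; bars mean ± SD, n = 5), where WT mouse 8 at 45.8% stands above the others.

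Single events were compared by the log2 ratio of the short to the long count, Q175 set minus Q150 set, using limma, and called where the p adjusted by Benjamini-Hochberg was under 0.05. Of 1731 events, 40 passed (2.31%), each in a different gene. Exclusion was higher in the Q175 set in 28 of them (1.62% of all events) and lower in 12 (0.693%). Their log2 differences ran from -1.06 to 2.23, and the set means were 5 or more points apart in 25 of the 40. For 29 of the 40 the 5 and 5 mice did not overlap at all, against 64 of all 1731 events (3.7%), these 29 included. Since the same mice chose the 40, this is a description. Of the 40, 39 were cassette exons and 1, in Clec16a, was an alternative 5' splice site. By mean exclusion, 2 of the 244 events under 5% passed (0.82%), 7 of the 327 from 5 to 20% (2.14%), 23 of the 759 from 20 to 80% (3.03%), 8 of the 252 from 80 to 95% (3.17%) and 0 of the 149 over 95%.

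The calls rest on the variance trend of the model. With limma and 1 common prior variance 0 events passed, the smallest adjusted p being 0.0605 and 245 events having an unadjusted p under 0.05 (258 with the trend), while a quasi-binomial model of the counts passed 40, with 35 of the same events. After each mouse was centred on its median event, 40 events passed with 23 higher and 17 lower. Before centring the median difference over all events was 0.038, and 55.5% of all events were higher in the Q175 set.

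The intervals bound what could have been missed. The 95% confidence interval of the log2 difference lay within ±1 in 1528 events (88.3%) and within ±0.5 in 630 (36.4%). Differences of 0.5 or smaller were often not detectable at this depth and number of mice. In simulated counts with 200 events changed, the fit recovered 39% of log2 differences of 0.5 and 78% of those of 1.

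Among events lower in the Q175 set, that of Fgf12 had the widest gap between set means in points. Fgf12 encodes an intracellular fibroblast growth factor homologue that binds voltage-gated sodium channels. Exclusion of the Fgf12 event (chr16:28398474-28753231) was 36.7, 41.9, 47.2, 36.8 and 39.6% in the Q150-set mice and 28, 30.3, 19.3, 32.2 and 31.1% in the Q175-set mice. All Q175-set mice lay below all Q150-set mice, WT mouse 8 by far the lowest. The log2 difference was -0.80 ± 0.21 (SE) with an adjusted p of 0.0397, with a difference of -12.2 points, and it was lost with the series as a random block or without any 1 of 7 mice (2, 3 or 6 to 10).

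Chd5, a chromatin remodeller of neurons, and Ahi1, a ciliary protein that binds the huntingtin-associated protein Hap1, moved the same way. The Chd5 event (chr4:151759705-151760057) had an exclusion of 69, 67.8, 68.6, 76.2 and 72.9% in the Q150-set mice and 61.6, 65.2, 57.9, 60.9 and 59.8% in the Q175-set mice. Within the Q150 set the higher-numbered mice 4 and 5 were the highest, and the difference between the sets was -0.64 ± 0.12 (SE) (adjusted p = 0.00365). For Ahi1 (chr10:20778056-20792348) exclusion was 37.5, 41.8, 31.3, 31.4 and 37.1% in the Q150-set mice and 27.2, 26, 30.5, 25.9 and 25.8% in the Q175-set mice. Q150-set mice 3 and 4 came within 1 point of Q175-set mouse 8 without overlapping, and the difference was -0.59 ± 0.13 (SE) (adjusted p = 0.0104).

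Acss2, which makes acetyl-CoA from acetate, and Rnf112, a RING-finger protein of brain, were also lower. The Acss2 event (chr2:155376205-155381589) had an exclusion of 82.4, 82.7, 81.8, 85.8 and 85% in the Q150-set mice and 77.5, 78.3, 77.8, 76.6 and 76.3% in the Q175-set mice. The Q175-set mice lay within 2 points of each other, all under the Q150-set mice, and the difference was -0.58 ± 0.10 (SE) (adjusted p = 0.00203). The Rnf112 event had an exclusion of 19.2, 18.3, 22, 23.9 and 22.9% in the Q150-set mice and 18.1, 17.1, 16.8, 13.1 and 13.1% in the Q175-set mice, with a difference of -0.55 ± 0.13 (SE) (adjusted p = 0.0201) and only a narrow gap between WT mice 2 and 6. Mtap4 (now Map4), a microtubule-binding protein, had an exclusion of 81.7% ± 2.2 (SD, n = 5) in the Q150 set and 77.2% ± 1.2 (SD, n = 5) in the Q175 set with a difference of -0.40 ± 0.10 (SE) (adjusted p = 0.0201). The 2810453I06Rik event (gene now Fam220a) had 46.3% ± 2.78 (SD, n = 5) in the Q150 set and 35.8% ± 4.92 (SD, n = 5) in the Q175 set, a difference of -0.64 ± 0.15 (SE) (adjusted p = 0.0201). At the inclusion end of the range, the 4921524J17Rik event fell from 2.8% ± 0.149 (SD, n = 5) to 1.38% ± 0.336 (SD, n = 5), the largest log2 difference of the lower events at -1.06 ± 0.20 (SE) (adjusted p = 0.00476).

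**Figure D2:**
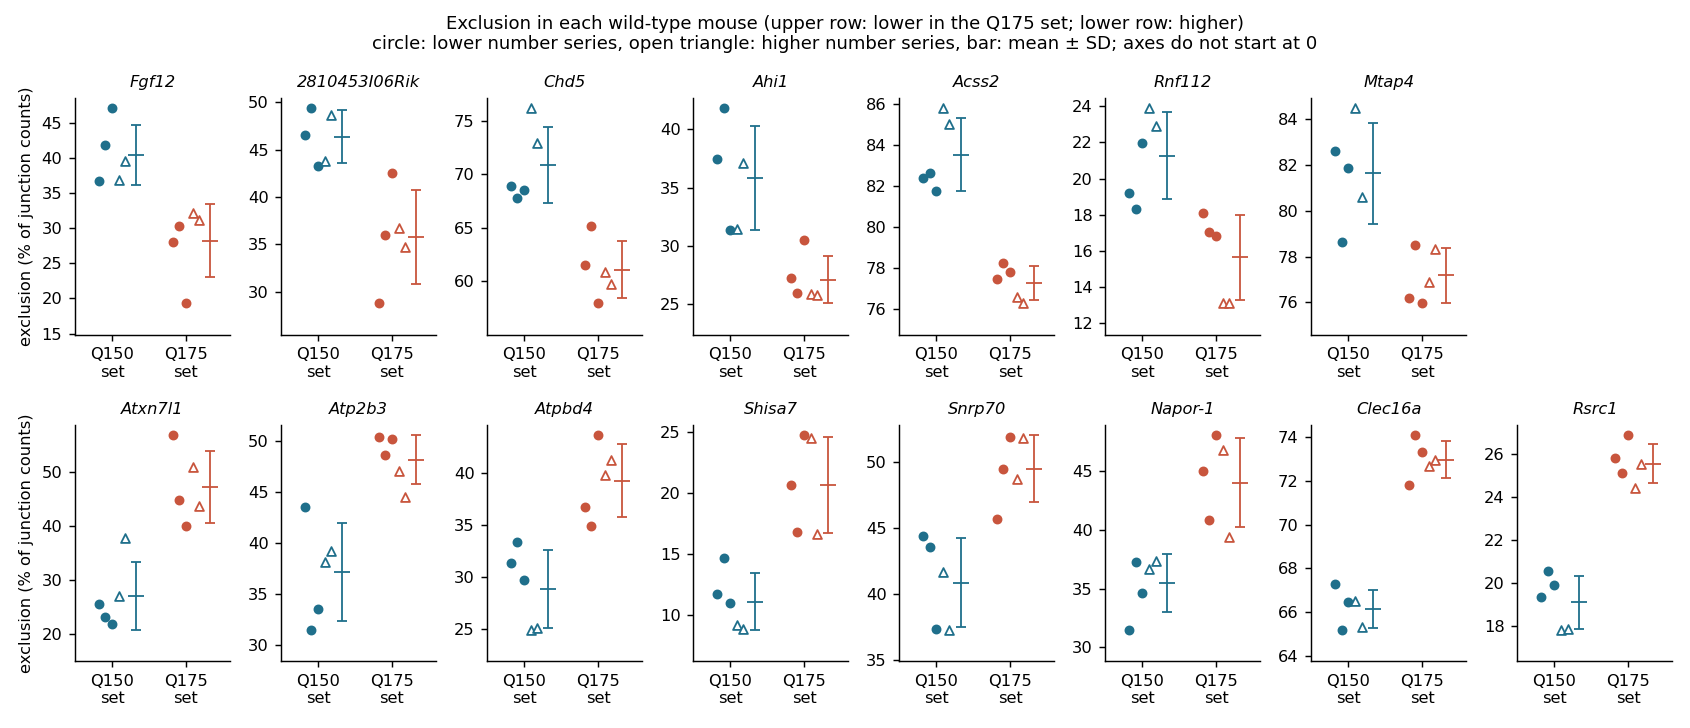
Exclusion (percent, y axis) in each of the 10 WT mice for 7 of the 8 events with the largest lower and the 8 with the largest higher difference in points among calls without overlap of the mice. Circles and open triangles are the lower and higher series of mouse numbers, bars the mean ± SD (n = 5); in every panel all mice of one set lie to one side of the other, with the widest mean gap in Atxn7l1, 27.0 against 47.3%.

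Among events higher in the Q175 set were those of membrane and synaptic proteins. Atp2b3 encodes a plasma membrane calcium pump, Shisa7 a transmembrane partner of synaptic receptors and Grik2 a kainate receptor subunit. Exclusion of the Atp2b3 event (chrX:70800574-70815572) was 43.6, 31.4, 33.5, 38.2 and 39.2% in the Q150-set mice and 50.4, 48.6, 50.3, 47.1 and 44.6% in the Q175-set mice. WT mouse 1 of the Q150 set and WT mouse 10 of the Q175 set nearly met, and the difference was 0.66 ± 0.15 (SE) (adjusted p = 0.0201). Exclusion of the Shisa7 event (chr7:4782510-4785831) was 11.7, 14.7, 11, 9.22 and 8.87% in the Q150-set mice and 20.7, 16.8, 24.8, 24.5 and 16.7% in the Q175-set mice. All Q175-set mice lay above the Q150-set mice but were spread over about 8 points, and the difference was 1.06 ± 0.21 (SE) (adjusted p = 0.00508). The Grik2 event was excluded in 92.2% ± 1.43 (SD, n = 5) in the Q150 set and 94.8% ± 0.634 (SD, n = 5) in the Q175 set, with overlapping mice and a difference of 0.62 ± 0.16 (SE) (adjusted p = 0.0328, or 0.061 with the number series of the mice as a random block).

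RNA-binding and splicing factors made up the group with the most calls in 1 list, though several lists had a larger share of their events called. Snrp70 (now Snrnp70) encodes the 70-kDa protein of the U1 particle that recognises 5' splice sites, and Rsrc1 a serine- and arginine-rich protein that acts in splicing. The Rsrc1 event (chr3:67153937-67160142) had an exclusion of 19.4, 20.6, 19.9, 17.8 and 17.9% in the Q150-set mice and 25.8, 25.1, 26.9, 24.4 and 25.5% in the Q175-set mice. The sets were far apart beside their own spread, and the difference of 0.54 ± 0.08 (SE) had an adjusted p of 0.00132, the smallest of all events together with that of Clec16a. The Snrp70 event (chr7:52636188-52639173) had an exclusion of 44.4, 43.6, 37.3, 41.7 and 37.3% in the Q150-set mice and 45.7, 49.5, 51.9, 48.7 and 51.8% in the Q175-set mice, with a difference of 0.51 ± 0.10 (SE) (adjusted p = 0.00476) and about 1 point between the nearest mice of the sets. Celf4 (log2 difference 0.38) and the translation factor gene Eif4h (0.39) were also higher. Hnrnpk, an RNA-binding protein of nucleus and cytoplasm, went the other way, with an exclusion of 1.49, 1.9, 0.999, 1.38 and 1.35% in the Q150-set mice and 0.877, 0.966, 0.966, 0.828 and 0.873% in the Q175-set mice. Exclusion of this exon was rare in every mouse, and WT mouse 3 of the Q150 set came close to the Q175-set mice; the difference was -0.64 ± 0.14 (SE) (adjusted p = 0.0121).

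Of the splicing and RNA-binding list, 5 of 91 events passed (5.49%, against 2.31% of all events), 4 higher and 1 lower, and the median log2 difference of the list was 0.100, against 0.038 over all events. Mag, Mtap7d2, Mlx and Hnrpdl, picked by name, gave 1 call among 5 events. The call was that of Mag, described with the myelin genes. Mtap7d2 (now Map7d2), a microtubule-associated protein, had 2.4% ± 0.501 (SD, n = 5) in the Q150 set and 2.13% ± 0.182 (SD, n = 5) in the Q175 set and a difference of -0.16 ± 0.15 (SE) (adjusted p = 0.648). Mlx, a transcription factor of glucose response, had 18.7% ± 4.9 (SD, n = 5) in the Q150 set and 17.1% ± 3.89 (SD, n = 5) in the Q175 set and a difference of -0.15 ± 0.24 (SE) (adjusted p = 0.82). The Hnrpdl gene (now Hnrnpdl), an RNA-binding protein, had 2 events. That with low exclusion was at 1.06, 1.14, 1.04, 0.855 and 1.11% in the Q150-set mice and 1.47, 1.56, 1.75, 1.38 and 1.22% in the Q175-set mice, without overlap but just short of a call, with a difference of 0.50 ± 0.14 (SE) (adjusted p = 0.0501). The other was at 86.1% ± 0.703 (SD, n = 5) in the Q150 set and 87.2% ± 1.99 (SD, n = 5) in the Q175 set with a difference of 0.16 ± 0.10 (SE) (adjusted p = 0.496).

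Regulators of small GTPases gave 4 calls among 52 events (7.69%, against 2.31% of all events), and all 4 were higher in the Q175 set, as were 28 of all 40 calls. The list's median difference was 0.054, against 0.038 over all events. Kalrn, a guanine exchange factor of dendritic spines first described as a partner of a huntingtin-associated protein, had an exclusion of 61.2, 61.6, 62.7, 61.1 and 62.4% in the Q150-set mice and 69.2, 68.4, 69.3, 64.5 and 66.7% in the Q175-set mice, a difference of 0.37 ± 0.08 (SE) (adjusted p = 0.0104). Q150-set mice lay within 2 points of each other and Q175-set mice were spread over 5. Arhgef1, a guanine exchange factor of small GTPases, rose in exclusion from 48.1% ± 6.71 to 64.2% ± 5.26 (SD, n = 5 each), with WT mouse 5 of the Q150 set inside the Q175 range, and its difference was 0.96 ± 0.18 (SE) (adjusted p = 0.00476). Tbc1d4, a GTPase activator for Rab proteins in glucose transporter traffic, had 52.1% ± 5.22 (SD, n = 5) in the Q150 set and 66.9% ± 5.34 (SD, n = 5) in the Q175 set, again with mouse 5 just inside the range of the other set, and a difference of 0.90 ± 0.20 (SE) (adjusted p = 0.0121). The fourth gene was AU040829 (now Arhgap44) at 0.53 (adjusted p = 0.00955).

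Events of genes outside these lists were also higher. Clec16a, a regulator of mitophagy, had at its alternative 5' splice site (chr16:10595894-10611095) an exclusion of 67.3, 65.2, 66.5, 66.5 and 65.3% in the Q150-set mice and 71.8, 74.1, 73.3, 72.7 and 73% in the Q175-set mice. The sets were separated by more than 4 points with an SD below 1 in both, and the difference was 0.47 ± 0.07 (SE) (adjusted p = 0.00132). Atpbd4 (now Dph6), an enzyme of diphthamide synthesis, had an exclusion of 31.3, 33.3, 29.7, 24.9 and 25.1% in the Q150-set mice and 36.7, 34.9, 43.7, 39.8 and 41.2% in the Q175-set mice, a difference of 0.68 ± 0.15 (SE) (adjusted p = 0.0121). Atxn7l1, a relative of ataxin-7, had an exclusion of 25.5, 23.1, 21.7, 27 and 37.8% in the Q150-set mice and 57, 44.9, 40, 50.9 and 43.8% in the Q175-set mice on a mean of only 60.2 counts per mouse, a difference of 1.26 ± 0.30 (SE) (adjusted p = 0.0201). Cobll1 had 91% ± 1.66 (SD, n = 5) in the Q150 set and 95.9% ± 1.35 (SD, n = 5) in the Q175 set with a difference of 1.24 ± 0.31 (SE) (adjusted p = 0.0273, or 0.0517 with the random block), and Napor-1, a symbol with no match in the gene table, had 35.5% ± 2.5 (SD, n = 5) in the Q150 set and 44% ± 3.78 (SD, n = 5) in the Q175 set with a difference of 0.52 ± 0.14 (SE) (adjusted p = 0.0381, or 0.0714 with the random block).

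Mag, a myelin protein that holds the glial membrane to the axon, exists as a large and a small isoform made by alternative splicing. Exclusion of its 1 event (chr7:31684717-31685656) was 19.3, 21.3, 20.5, 25.5 and 21.4% in the Q150-set mice and 29.9, 27.4, 27.6, 27.4 and 26.1% in the Q175-set mice. All Q175-set mice lay above all Q150-set mice, WT mouse 4 of the Q150 set coming nearest, and the difference was 0.48 ± 0.10 (SE) (adjusted p = 0.00745). It was the 1 call among the 10 events of the myelin and oligodendrocyte list, whose median difference was -0.151. Summed over those 10 events the level was 9555 to 15460 CPM (counts scaled to the same sum over all common events) in the Q150 set and 10620 to 12820 CPM in the Q175 set, so the myelin level of the Q175 set lay within that of the Q150 set. In R6/2 WT mice the same event was excluded in 40.1% ± 4.25 (SD, n = 3).

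Fn1 had the largest difference among the 40 and was uneven within both sets. Fibronectin, its product, is made in brain mainly by vascular cells. Exclusion of the Fn1 event (chr1:71659224-71661933) was 5.22, 4.26, 9.3, 27 and 13.1% in the Q150-set mice and 49.5, 35.2, 41.3, 30.7 and 19% in the Q175-set mice, on a mean of 132 counts per mouse. The sets overlapped, since WT mouse 4 of the Q150 set exceeded WT mouse 10 of the Q175 set, and mice within a set differed several-fold. The difference was 2.23 ± 0.42 (SE) (adjusted p = 0.00476), and between the 2 number series of Q150-set mice the same event differed by 1.82 (adjusted p = 0.0107). The 4 events of the vascular list, Fn1 included, had a summed level of 145 to 372 CPM (median 185) in Q150-set mice against 277 to 332 CPM (median 302) in Q175-set mice, with 4 of 5 Q150-set mice below every Q175-set mouse, and the part of that level in the result was not tested.

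In the further named events of App, Cltb, Camk2d and Mef2c the mice of the sets overlapped. That of Enah did not overlap but differed by only 2.51 points. App, the amyloid precursor protein, had a lower exclusion in the Q175 set, 76.3% ± 4.03 (SD, n = 5) in the Q150 set and 70.1% ± 1.39 (SD, n = 5) in the Q175 set, with a difference of -0.47 ± 0.11 (SE) (adjusted p = 0.0193); WT mouse 5 at 69.4% was the exception in the Q150 set. Higher exclusion was found for Cltb, a clathrin light chain (66.8 to 75.5%, difference 0.61 ± 0.12 (SE)), Enah, an actin regulator (91.9 to 94.4%, 0.57 ± 0.15 (SE)), Camk2d, a calcium-dependent kinase (92.4 to 95.8%, 0.87 ± 0.22 (SE)), and Mef2c, a transcription factor of neurons (3.61 to 6.8%, 0.92 ± 0.22 (SE)). The remaining 10 calls, chosen here for completeness after their values were seen, were Gripap1, lower at -0.37, and Celf4, Eif4h, Erc2, Setd3, AU040829, Col4a3bp (now Cert1), Cbfa2t3h (now Cbfa2t3), 2610204M08Rik (now Inf2) and Cpeb4, higher by 0.38 to 0.79.

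Gene lists not yet given held few calls. Channels, receptors and transporters had 3 of 45 events (6.67%), 2 higher and 1 lower, with a median of 0.007. Synapse and adhesion genes had 3 of 106 (2.83%), 2 higher and 1 lower. Cytoskeleton and motor genes had 2 of 99 (2.02%) and transcription and chromatin genes 2 of 80 (2.5%), 1 in each direction in both. Kinases, phosphatases and signalling genes had 1 of 68 (1.47%), Camk2d. Huntingtin partners had 2 of 9, Kalrn higher and Ahi1 lower, and the vascular list had 1 of 4. No event passed among the 11 of the neuron list, 4 of the astrocyte list, 3 of the microglia and immune list or 21 of the ubiquitin, chaperone and autophagy list. No list's share, here or above, was tested against the 2.31% of all events.

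The 2 junctions of an event were then followed on their own, as log2 CPM (counts scaled to the same sum over all common events). In 35 of the 40 events (87.5%) the short and long junctions differed in opposite directions between the sets, against 41.7% of all events; since the ratio chose the 40, this is a description. The short junction had the larger difference in 23 and the long junction in 17. For Acss2 the difference lay in the long junction (0.58, the short one differing by less than 0.01), and for Camk2d too (-0.86, short 0.01). For Atxn7l1 it lay in the short junction (1.28, long 0.02), as it mostly did for Hnrnpk (-0.55, long 0.09). In Ahi1 both junctions were lower in the Q175 set, the short one by more (-0.84 against -0.26).

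**Figure D3:**
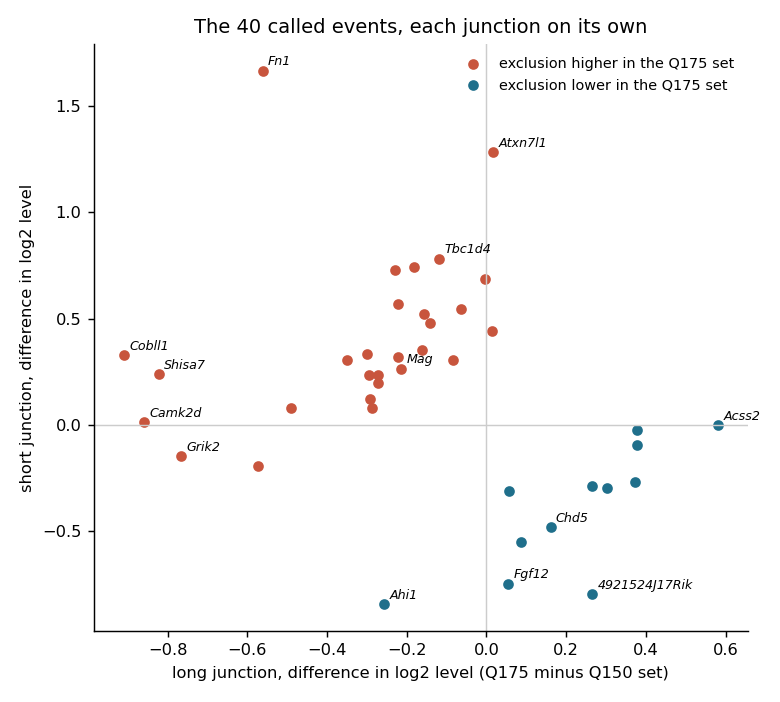
Difference between the sets (Q175 minus Q150, log2 CPM) of the long junction (x axis) and the short junction (y axis) for the 40 events that passed. In 35 events the 2 junctions differ in opposite directions; Acss2 and Camk2d lie along the axis of the long junction and Atxn7l1 along that of the short one.

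The HET and HOMO mice of the same sets are animals the comparison did not use, although their set difference also holds the difference in allele length. Between HET mice of the sets 59 events passed (3.41%), 19 higher and 40 lower in the Q175 set, and between HOMO mice 125 (7.22%), 35 higher and 90 lower. Without the variance trend 5 and 22 events passed, and 0 in WT mice, so the counts of shared calls given here also rest on the trend. In the HOMO mice the median event differed by -0.086, and after centring 67 events were higher and 58 lower. Counts moved with single mice: in HET mice 19, 32 and 144 events passed without Q150-set mouse 1, 2 or 4 and 37 and 33 without Q175-set mouse 2 or 3, and in HOMO mice 57, 50 and 71 passed without Q175-set mouse 1, 2 or 3. Of the 40 WT events, 39 (97.5%) had the same sign in HET mice, against 61.2% of all 1731 events, and 12 passed there, all 12 in the WT direction. In HOMO mice 29 of the 40 (72.5%) had the same sign, against 53.0% of all events, and 11 passed, all in the WT direction. The set differences correlated over all events with r = 0.379 between WT and HET mice and r = 0.191 between WT and HOMO mice; the groups share no mice but share set, age and any batch.

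Events that passed in all 3 genotypes in 1 direction were 8 in number. Chd5, Hnrnpk, Ahi1, Acss2, Rnf112 and Gripap1 were lower in the Q175 set in each, and Eif4h and Clec16a higher. The Acss2 difference was -0.58 in WT, -0.77 in HET and -1.33 in HOMO mice, and that of Clec16a was 0.47, 0.83 and 1.05. Both were larger in HOMO than in WT mice by the interaction in 1 limma fit over 25 mice (adjusted p = 0.00539 and 0.00476). Fgf12 (-1.54), 4921524J17Rik (-1.46) and Snrp70 (0.69) passed in HOMO and not in HET mice, where they were at -0.62, -0.55 and 0.34. Mag (0.61), Grik2 (0.88), Atp2b3 (0.71) and Arhgef1 (0.75) passed in HET and not in HOMO mice, where they were at -0.03, 0.55, 0.22 and -0.05. The set differences of HET and HOMO mice were not tested against each other. For Mag the HOMO difference was -0.03, and its interaction against WT did not pass (adjusted p = 0.169). Over all events 0 interactions passed between WT and HET mice in that fit, with 141 at an unadjusted p under 0.05, and 59 passed between WT and HOMO mice, 7 of them among the 40. The median interaction with HOMO mice was 0.12, and 33 passed after centring. The mouse numbers fall into a lower and a higher series in each set, described with the WT mice, and all 4 HET mice of the Q175 set are of the lower series and all 3 HOMO mice of the higher one, so within these mutants genotype and series coincide. The WT mice of the Q175 set are of both series, and 0 of 1731 events passed between them in limma, with 97 at an unadjusted p under 0.05. The higher minus the lower series was -0.02 ± 0.10 for Clec16a and -0.11 ± 0.12 for Acss2 (log2, SE, 2 against 3 mice). The fits of the mutant mice and of the interactions do not hold the series.

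**Figure D4:**
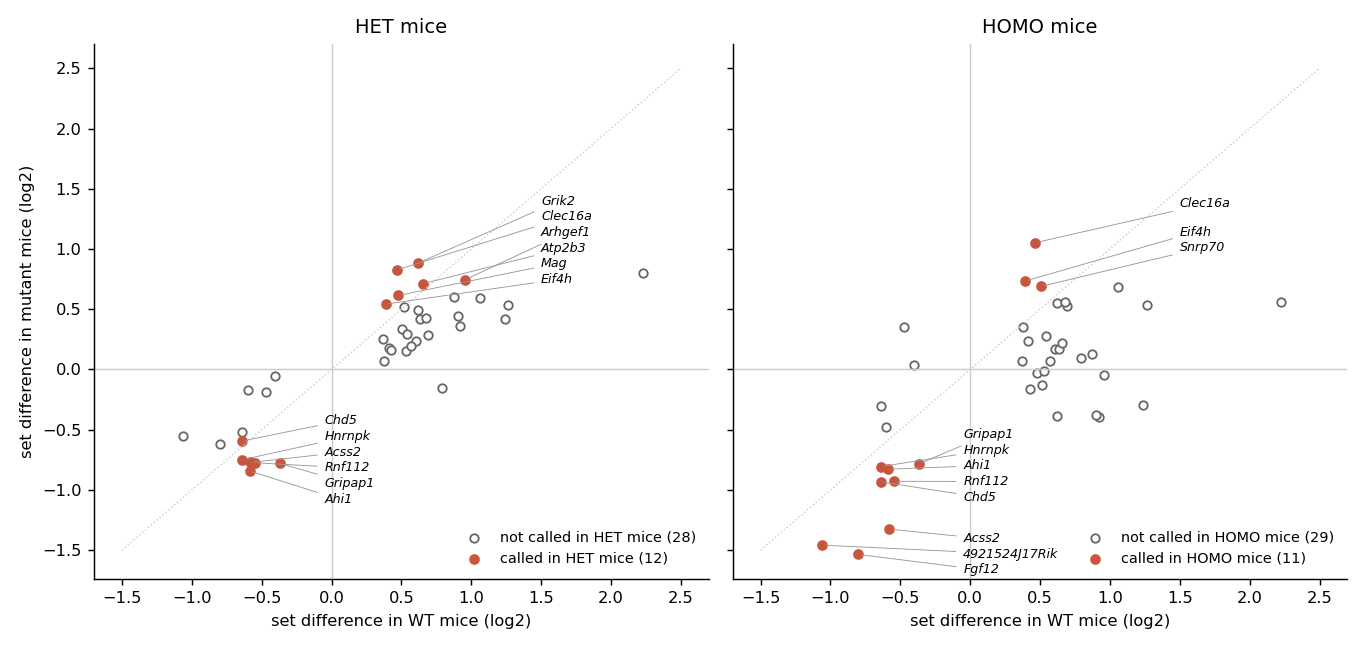
Set difference (log2, Q175 minus Q150) of the 40 events that passed in WT mice (x axis) against the same difference in HET mice (left, y axis) and HOMO mice (right, y axis); filled points, named, also passed in the mutant mice, and the dotted line marks equal differences. In HET mice 39 of the 40 have the same sign as in WT mice and in HOMO mice 29.

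WT mice of 1 set also differed among themselves. The numbers of the Q150-set mice fall into 2 series, 1, 79 and 80 against 402 and 404, as do those of the Q175-set mice, 544, 811 and 861 against 3878 and 3903. What the numbers stand for is not stated, and no series holds mice of both sets. Within the Q150 set 70 events (4.04%) passed between the series, and within the Q175 set 0 (97 at an unadjusted p under 0.05 in limma). Within the Q150 set 39 passed without WT mouse 4, 23 without mouse 5 and 0 in the fit with no variance trend (260 at an unadjusted p under 0.05). Leaving out mouse 4 or 5 leaves 1 mouse in the higher Q150 series, which is then assumed to vary like the mice of the other series in the fit. Of the 40 set calls, 5 also passed between the Q150 series, in Chd5, AU040829, Cltb, 2610204M08Rik and Fn1. With the series as a random block 33 events passed (1.91%), all among the 40, with an estimated correlation of 0.068. Limited to the 3 lower-numbered Q150-set mice, an alternative chosen after seeing the data, 105 events passed and 36 of the 40 were among them. As a check for 1 library deposited more than once, the counts of pairs of mice of a set were compared; chi-square per degree of freedom ran from 2.79 to 7.88, so no pair agreed within sampling noise, as separate animals would not.

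Single mice changed the number of calls. It was 22 without WT mouse 9, 23 without mouse 8 and 24 without mouse 6, all of the Q175 set, and 72 without mouse 5. No call changed sign in any of 20 alternatives, and 16 of the 40 were kept in all of them except the fit without a variance trend, among them Acss2, Ahi1, Arhgef1, AU040829, Chd5, Clec16a, Cltb, Fn1, Kalrn, Mag, Rsrc1, Shisa7, Snrp70, 2610204M08Rik and 4921524J17Rik. Enah was lost without any 1 of the 10 mice. Of the 8 events that passed in all 3 genotypes, 3 were lost in WT mice in this way, Gripap1 without mouse 3, 4 or 6 to 10, Eif4h without mouse 3, 7, 8 or 10, and Rnf112 without mouse 3, 9 or 10. Of the other events described with their values in each mouse, Atpbd4 was lost without mouse 8, Atp2b3 without mouse 3, 6 or 8, and Atxn7l1 without mouse 3, 6 or 9. Of those given by set means, Tbc1d4 was lost without mouse 8 or 9, 2810453I06Rik without mouse 6, 9 or 10, Mef2c without mouse 6, 8 or 9, App without mouse 1, 3, 8 or 9, Mtap4 without mouse 1, 4, 6, 8 or 9, Napor-1 without mouse 1, 3, 6, 8 or 9, Cobll1 without mouse 1, 2, 6, 8 or 10, Camk2d without mouse 1, 3, 6, 8, 9 or 10, and Grik2 without any 1 of 7 mice (1, 2, 3 or 6 to 9). Of the remaining calls, Celf4 was lost without mouse 3 or 7 to 9, Cbfa2t3h without mouse 1, 3, 9 or 10, Cpeb4 without mouse 4, 6 or 10, Erc2 without mouse 4 or 6 to 9, Col4a3bp without mouse 1, 3 or 6 to 9, and Setd3 without mouse 1, 3, 4, 6, 7, 9 or 10. With the series as a random block the calls of Fgf12, Grik2, Cobll1, Col4a3bp, Napor-1, Setd3 and Enah were lost. After centring those of Celf4, Erc2, Napor-1, Setd3 and Enah were lost, in the quasi-binomial model those of Hnrnpk, Mef2c, Cbfa2t3h, Cpeb4 and Enah, with all 25 knock-in mice in the fit those of Mtap4, Napor-1 and Enah, and with the lower-numbered Q150-set mice alone those of Cpeb4, Erc2, Gripap1 and Enah.

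The 3 WT mice of the R6/2 line gave a further level for these events, all 40 of which were listed for them. They differ from both sets in strain as well as age. Their mean exclusion lay between the 2 set means in 30 events, beyond the Q150 set in 9 and beyond the Q175 set in 1, which was Mag. It was nearer to the Q150 set in 30 of the 40 (75.0%), against 53.5% of the 1662 events listed in all files. For Acss2 it was 84.2% ± 0.752 (SD, n = 3), for Clec16a 67.2% ± 1.42, and for Rsrc1 20.8% ± 0.889, close to the Q150-set means in each. For Kalrn it was 66.3% ± 0.122, near that of the Q175 set. No test was made.

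The level of an event, the sum of its 2 junctions in CPM, is a second readout of the same probes. By this measure 40 of 1731 events (2.31%) differed between the sets, 21 higher and 19 lower in the Q175 set. Without the variance trend 9 passed, 3 higher and 6 lower. Of the 40 events called in usage, 5 also passed in level, against 2.31% of all events. They were those of Chd5, Eif4h, Cltb, Col4a3bp and Shisa7. In whole tissue, fewer cells of a type and less RNA per cell cannot be told apart. Between the Q150 series 104 events (6.01%) differed in level and between the Q175 series 0 (137 at an unadjusted p under 0.05 in limma), and with the series as a random block 6 events passed (0.347%), at an estimated correlation of 0.21. With median-of-ratios size factors 24 were higher and 13 lower.

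The 4 largest higher differences in level were those of Prom1, Layn, Pecam1 and Itga6. Layn, a hyaluronan receptor, was at 12.8, 8.73, 10.7, 12.3 and 17.7 CPM in the Q150-set mice and 29.7, 24.8, 26.5, 23.1 and 26.2 in the Q175-set mice. The 5 Q175-set mice were all above the Q150-set mice, and the log2 difference in level was 1.09 ± 0.167 (SE) with an adjusted p of 0.00268. Itga6, an integrin subunit, was at 71.5, 69.9, 63.2, 83.7 and 87.7 CPM in the Q150-set mice and 127, 121, 115, 103 and 114 in the Q175-set mice, a difference in level of 0.63 ± 0.0983 (SE; adjusted p = 0.00268). The endothelial adhesion gene Pecam1 differed by 0.87 (adjusted p = 0.0212) and Prom1, a membrane protein of cell protrusions, by 1.14 (adjusted p = 0.044). Prom1 was at 34.9, 36.3, 30.1, 85.8 and 104 CPM in the Q150-set mice and 141, 103, 105, 120.5 and 98.5 in the Q175-set mice. In both Prom1 and Pecam1 the 2 higher-numbered Q150-set mice lay between the other Q150-set mice and most of the Q175 set, and neither call held with the series as a random block.

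The 4 largest lower differences in level were those of Shisa7, Ctnna2, Camk2d and Cacna1c. Ctnna2, a catenin of neuronal junctions, was at 124, 105, 126, 127 and 122 CPM in the Q150-set mice and 88.3, 85, 71.7, 70.6 and 84.5 in the Q175-set mice. The sets did not overlap, and the difference in level was -0.59 ± 0.0899 (SE; adjusted p = 0.00268). A Camk2d event with almost complete inclusion was at 2334, 2127, 2334, 2104 and 1744 CPM in the Q150-set mice and 1409, 1575, 1561, 1488 and 1398 in the Q175-set mice, a difference of -0.51 ± 0.0766 (SE; adjusted p = 0.00268). Its rare short junction had the same mean levels as the long junction of the Camk2d event called in usage, 11.2 and 6.11 CPM in the Q150 and Q175 sets. A second Camk2d event, with a difference in level of -0.50 (adjusted p = 0.00268), moved alike. Cacna1c, the pore subunit of an L-type calcium channel, differed by -0.51 (adjusted p = 0.0214) and Shisa7 by -0.66 (adjusted p = 0.0444). The 6 events that held with the series as a random block were those of Layn, Itga6, Ctnna2, 2 of Camk2d and 1 of Plcb4, a phospholipase of receptor signalling, higher by 0.52. Leaving out WT mouse 3 or 9 left 6 calls of level, and leaving out mouse 7, 8 or 10 left 13, 17 and 16.

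**Figure D5:**
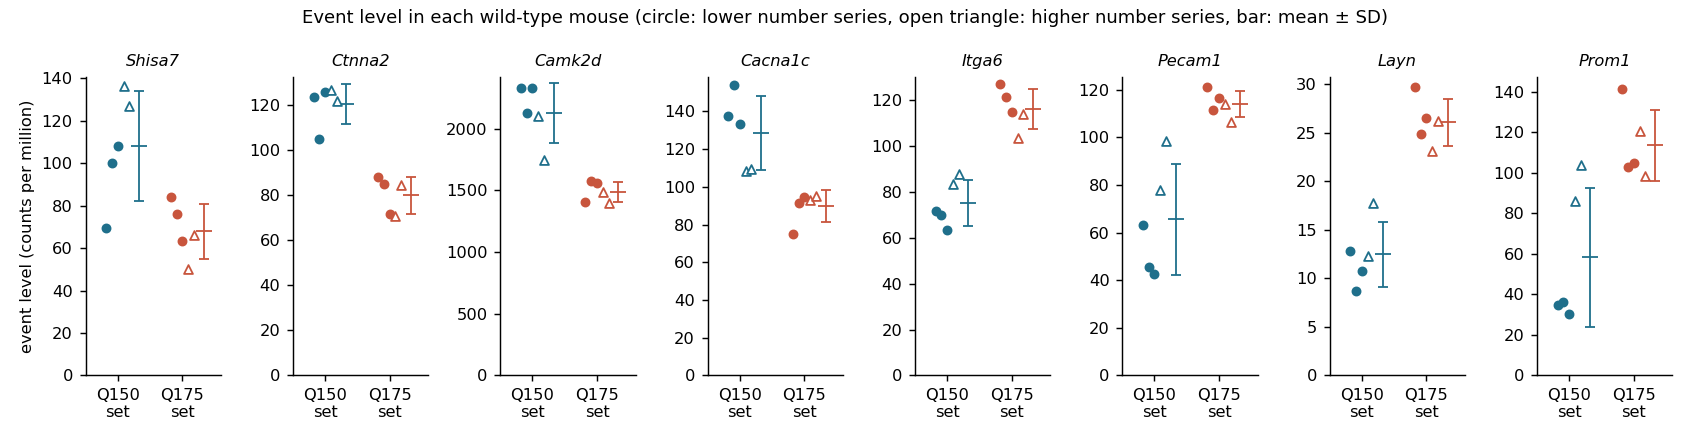
Event level (short plus long CPM over all common events, y axis from 0) in each of the 10 WT mice for the 4 events with the largest lower (left) and the 4 with the largest higher (right) log2 difference in level among those that passed. Circles and open triangles are the lower and higher series of mouse numbers, bars the mean ± SD (n = 5); Prom1 and Pecam1 differ within the Q150 set as well.

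The ranges of the summed levels of the cell type lists overlapped between the sets. Summed over 11 neuron events the level was 42960 to 50600 CPM in the Q150 set and 40280 to 48750 in the Q175 set. It was 13430 to 18760 and 15630 to 19340 over 4 astrocyte events, and 194 to 266 and 183 to 208 over 3 microglia and immune events. The 4 vascular events had a median summed level of 185 CPM in the Q150 set and 302 CPM in the Q175 set, with 4 of 5 Q150-set mice below every Q175-set mouse and mouse 5 above them all. Their median difference in level was 0.39, and 1 of them, Pecam1, passed. No event of the neuron, astrocyte, microglia and immune or myelin lists passed in level.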

How the data were processed

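RASL-seq libraries from total RNA of mouse cortex, 1 per mouse, were made by probe ligation on bead-bound RNA and PCR. Molecular identifiers are not mentioned, so counting intervals would cover counting error only. The aligner is not given in the sources used here. The deposited values, recorded here as unit other because large values carry a comma, are short and long junction counts as the authors left them, with no normalization. The commas were removed.

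Ratios were log2((short + 0.5)/(long + 0.5)). Tests used limma 3.58.1 (statmod 1.5.0, R 4.3.3) with the prior variance following an effective count (the product of both counts over their sum, mean log2), over all 1731 common events with a mean count of at least 10 (none failed), and Benjamini-Hochberg adjustment. Mean exclusion was compared by exact permutation. Levels were log2 CPM (pseudocount 0.5) of the summed common-event counts. The fits were tested on simulated data before use.

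Members, gene lists and the naming rule were chosen with earlier results of these data known. Named events were, among events past the threshold without overlap, the 8 largest differences in points and the 4 largest in log2 in each direction; all events of Mag, Mtap7d2, Mlx and Hnrpdl; up to 2 events past the threshold in each of 15 gene lists; and for level the 4 largest in each direction. Of the events so named, 1 is not reported here, though counts include it. Symbols were matched to the RefSeq table for GRCm38, 1450 directly, 237 through synonyms and 44 not at all. Nothing states that the mice are independent litters, so p-values measure the spread between these mice.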

Additional observations from a re-analysis of the deposited data

Results flagged for a closer look

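Within sets of 5 mice, 6 of 88 groups of values tested held 1 mouse far from the other 4, where chance gives about 1 in 20. Mean exclusion was 45.8% in WT mouse 8 against 45.1% in each of the other Q175-set mice. For Camk2d (chr3:126504679-126513556) WT mouse 7 was lowest at 94.7%, against 95.9 to 96.3%. WT mouse 5, the library with the lowest total, was highest for Mtap7d2 at 3.27% (others 2.03 to 2.35%) and lowest for App at 69.4% (others 76.9 to 79.3%). In level, Ctnna2 was 105 CPM in WT mouse 2 (others 122 to 127) and Cacna1c 74.8 in WT mouse 6 (others 91.6 to 95.3).

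The set difference in WT mice differed from that in HOMO mice for 8 events named here, 7 of them among the 40 calls (interaction in limma over 25 mice, adjusted p under 0.05; WT minus HOMO, log2). All 3 HOMO mice of the Q175 set are of the higher number series. Between the series of the Q175-set WT mice 0 events passed in limma (97 at an unadjusted p under 0.05), and the higher minus the lower series was -0.02 ± 0.10 for Clec16a, -0.11 ± 0.12 for Acss2 and 0.04 ± 0.13 for App (log2, SE, 2 against 3 mice). It was -0.28 ± 0.21 for Col4a3bp, -0.26 ± 0.22 for Arhgef1, 0.25 ± 0.28 for Tbc1d4 and 0.08 ± 0.32 for Mef2c. The value for Hnrpdl is not given here. Clec16a (-0.59, adjusted p = 0.00476) and Acss2 (0.74, adjusted p = 0.00539) had the same direction in both genotypes and a larger difference in HOMO mice. App (-0.82, adjusted p = 0.0253) was lower in the Q175 set in WT mice (-0.47) and at 0.35 in HOMO mice. Mef2c (1.32, adjusted p = 0.0242), Tbc1d4 (1.28, adjusted p = 0.0402), Arhgef1 (1.01, adjusted p = 0.0388) and the low-exclusion event of Hnrpdl (0.72, adjusted p = 0.0399) were at 0.92, 0.90, 0.96 and 0.50 in WT mice, where Hnrpdl alone was not called, and at -0.39, -0.38, -0.05 and -0.22 in HOMO mice. Col4a3bp (1.00, adjusted p = 0.0274) was at 0.62 in WT and -0.38 in HOMO mice. After each mouse was centred on its median event, the interactions of Clec16a, App and Acss2 still passed (adjusted p = 0.00226, 0.0164 and 0.0224) and those of Mef2c, Arhgef1, Tbc1d4 and Hnrpdl did not (0.0525, 0.0772, 0.0837 and 0.12). The centred result for Col4a3bp is not given here.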

How the results depend on the processing

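The number of usage events past the threshold, 40, was 41 with a mean count of at least 50 and with all 25 knock-in mice in the fit, 40 without a count minimum, with a pseudocount of 2, after centring (23 higher, 17 lower) and in the quasi-binomial model, 33 with the series as a random block and 30 with a minimum log2 difference of 0.5. It was 0 without a variance trend, 91 with equal weight to each number series and 105 with the lower-numbered Q150-set mice alone, and from 22 to 72 with a mouse left out. The count of levels, 40, was 37 with median-of-ratios size factors, 42 with a mean count of at least 50, 9 without a trend, 6 with the random block, 165 with the lower-numbered Q150-set mice alone and from 6 to 60 with a mouse left out. The difference in mean exclusion, 0.375 points, was 0.343 as a share of summed counts, 0.721 as a median over events, 0.376 over cassette exons, 0.4 over events with at least 50 counts and from 0.244 to 0.449 with a mouse left out. Without a trend 5 events passed between the sets in HET mice (59 with it) and 22 in HOMO mice (125), and with a mouse left out 19 to 144 and 50 to 154. Between the Q150 series 0 passed without a trend, 126 after centring (27 higher and 99 lower, against 34 and 36) and 23 to 83 with a mouse left out; between the Q175 series 0 in all 8 fits. The interaction of WT with HOMO mice passed in 33 events after centring against 59. The cause of these changes was not tested. For single named events, 651 values under an alternative kept their side of the threshold, 143 kept direction only and 6 gained the threshold. Among events called in the main fit 0 reversed. For named events that were not called, a change of direction was not counted. No paired analysis was possible because the sets share no replicate number or mouse series. Depth limits what can be seen: events near complete inclusion or exclusion rest on few counts of 1 junction.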

Other observations

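In 7 of the 40 genes with a usage call the probes covered further events, 19 events in all, and in none of the 7 did a second event pass. The other 2 events of Cpeb4, a regulator of polyadenylation and translation, were at 0.05 (adjusted p = 0.884) and -0.17 (adjusted p = 0.389), beside 0.79 for the one that passed. Of the 5 Camk2d events the one of type TwoMulx had an exclusion of 78.7% ± 3.29 in the Q150 set and 86% ± 1.4 in the Q175 set (SD, n = 5 each) and did not pass (log2 difference 0.72, limma adjusted p = 0.0745), and the files give it the same positions as the one that passed. A further cassette event at those positions was at 0.15 (adjusted p = 0.67), and the other 2 Camk2d events were at -0.35 (adjusted p = 0.424) and -0.37 (adjusted p = 0.514). The event at -0.35 is not independent of the one that passed. Its short junction had the same mean levels as the long junction of the one that passed, 11.2 CPM in the Q150 set and 6.11 CPM in the Q175 set. The second event of Rsrc1 had a difference of 0.31 (adjusted p = 0.268), of Fn1 -0.26 (adjusted p = 0.69), of Gripap1 0.06 (adjusted p = 0.915), of the other 2 events of Erc2 0.24 (adjusted p = 0.712) and 0.00 (adjusted p = 0.99), and of App 0.35 (adjusted p = 0.269).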
